A study of Mus musculus with 3 samples.

Results

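The 6 keratin genes Krt6a, Krt6b, Krt16, Krt17, Krt75 and Krt79, which are wound, companion layer and upper follicle keratins, were followed through the keratinocytes of mouse dorsal skin. They were taken by symbol from the 33696 genes of 3 single-cell RNA count matrices, and all 6 were found. The skin came from female C57BL/6 mice 9 weeks of age. The Cont library was made from vehicle-treated negative controls, the CIA library from a model of chemotherapy-induced alopecia, and the CIA+VFX library from that model treated with venlafaxine (VFX), a serotonin and noradrenaline reuptake inhibitor. All 3 libraries share wax-strip depilation: only depilated skin was excised, and each library pools an unstated number of mice. The labels used here give neither the drug that induces the alopecia nor its dose and timing. Each group is 1 library, so no difference between groups has a replicate check and no test across samples was made. Intervals below cover counting error only and say nothing of the spread between mice.

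Keratins form filaments as pairs of an acidic type I and a basic type II chain. Krt6a and Krt6b are type II chains that pair with the type I chains Krt16 and Krt17, and in the epidermis these are known as wound or stress keratins because they appear in interfollicular epidermis after injury. Without injury, Krt17 and Krt6a are made constitutively in the outer root sheath and the companion layer of the follicle. Krt75 is a type II chain of the companion layer, the single cell sheet between the outer and inner root sheaths. Krt79 is a type II chain of the infundibulum and the sebaceous duct, the upper canal of the follicle.

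The counts come from 3′ ends, so the sequences at that end decide whether close copies can be told apart. Krt6a lies at chr15:101689910-101694307 and Krt6b at chr15:101676023-101680287, both on the minus strand, in the GRCm38 annotation. The files use GRCm39, and no coordinate was converted. Their coding sequences are 97.6% identical over 1665 aligned bases, whereas their 3′ UTRs are 70.9% identical. The last 120 coding bases of both genes are shown because they carry this near identity into the last exon. Capitals mark bases with no identical partner in the alignment, 3 in Krt6a and 6 in Krt6b.
Krt6a: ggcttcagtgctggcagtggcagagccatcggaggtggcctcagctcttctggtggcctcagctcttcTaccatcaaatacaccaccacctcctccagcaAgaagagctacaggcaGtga
Krt6b: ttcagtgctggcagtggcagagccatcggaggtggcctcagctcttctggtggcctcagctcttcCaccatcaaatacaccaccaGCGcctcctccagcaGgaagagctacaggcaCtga

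Within the last 500 transcript bases, none of the 451 windows of 50 bases in Krt6a, Krt6b, Krt75 or Krt79 occurred in a transcript of another gene. Krt16 (chr11:100246091-100248902, minus strand) shared 76 of 451 windows, 16.9%, mainly with the predicted gene Gm11597. Krt17 (chr11:100256217-100261029, minus strand) shared 43 of 451, 9.53%, mainly with Krt14, the basal epidermal type I keratin. How reads from shared windows were assigned is not given in the sources used here, so Krt16 and Krt17 counts carry that uncertainty, and Krt6a and Krt6b remain a close pair upstream of their ends. Krt75 lies at chr15:101563345-101573904 and Krt79 at chr15:101929332-101940324, on the same strand as the Krt6 genes.

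After filters, 11904 Cont, 15401 CIA and 15372 CIA+VFX cells were kept. Cells whose epithelial markers led all other compartments were gated as keratinocytes: 4019 (33.8%), 3516 (22.8%) and 5870 (38.2%) in the same order. Their median depth was 12088, 7693.5 and 8144.5 UMIs (unique molecular identifiers, 1 per captured molecule). The gate held between 93.7% and 98.9% of each member's UMIs in every library. Between 75 and 110 cell barcodes were shared by a pair of libraries. Keratinocytes were assigned to classes by marker lists that exclude the members, and separately to 21 clusters made without the members. Class names are approximate. The class scored highest for basal markers had none of those markers among its 10 leading genes, so it is called basal-marker cells. No companion layer class was made, because Krt75 and Krt6a define that layer.

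In all gated keratinocytes Krt17 had the highest level of the 6 members, at 1637 CPM in Cont, 3024 in CIA and 1953 in CIA+VFX. CPM is the usual depth scaling, a gene's UMIs relative to all UMIs of the same cells. CPM of 3′ counts is not scaled by transcript length, since each molecule is counted once, but capture can differ between genes, so the order between genes is approximate. Krt16 stood at 163, 345 and 159 CPM, and Krt6a at 79.6, 304 and 154 CPM in that library order. Both were highest in CIA. Krt79 was at 125, 505 and 382 CPM, and Krt75 at 88.3, 121 and 94.1 CPM. Krt6b was the lowest, at 1.70, 55.7 and 3.16 CPM. The 6 genes together made up 2094 CPM of keratinocyte UMIs in Cont, 4354 in CIA and 2745 in CIA+VFX.

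The members differed in where they were found. Krt79 was highest in upper follicle-like cells, at 1640, 3608 and 2966 CPM in Cont, CIA and CIA+VFX, followed by sebocyte-like and suprabasal-like cells. In sebocyte-like cells it was 583, 1170 and 1127 CPM. In the bulge and outer root sheath-like, inner root sheath-like and matrix-like classes Krt79 lay between 1.43 and 14.2 CPM. In macrophages, which should lack keratins, it was 2.45, 6.85 and 9.15 CPM, so those 3 classes were close to the level of free RNA.

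Krt17 was also highest in upper follicle-like cells, at 3175, 7309 and 4605 CPM, against 35.3, 38.3 and 53.0 CPM in macrophages. Krt6a had the same leading class, at 354, 1118 and 618 CPM. Krt16 was led by suprabasal-like cells in CIA (3987 CPM) and CIA+VFX (1407 CPM), but by inner root sheath-like cells in Cont (242 CPM). Krt75 had no such gradient in Cont, where its highest class was the matrix-like cells at 210 CPM. The plot of levels by class shows these orders.

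**Figure D1:**
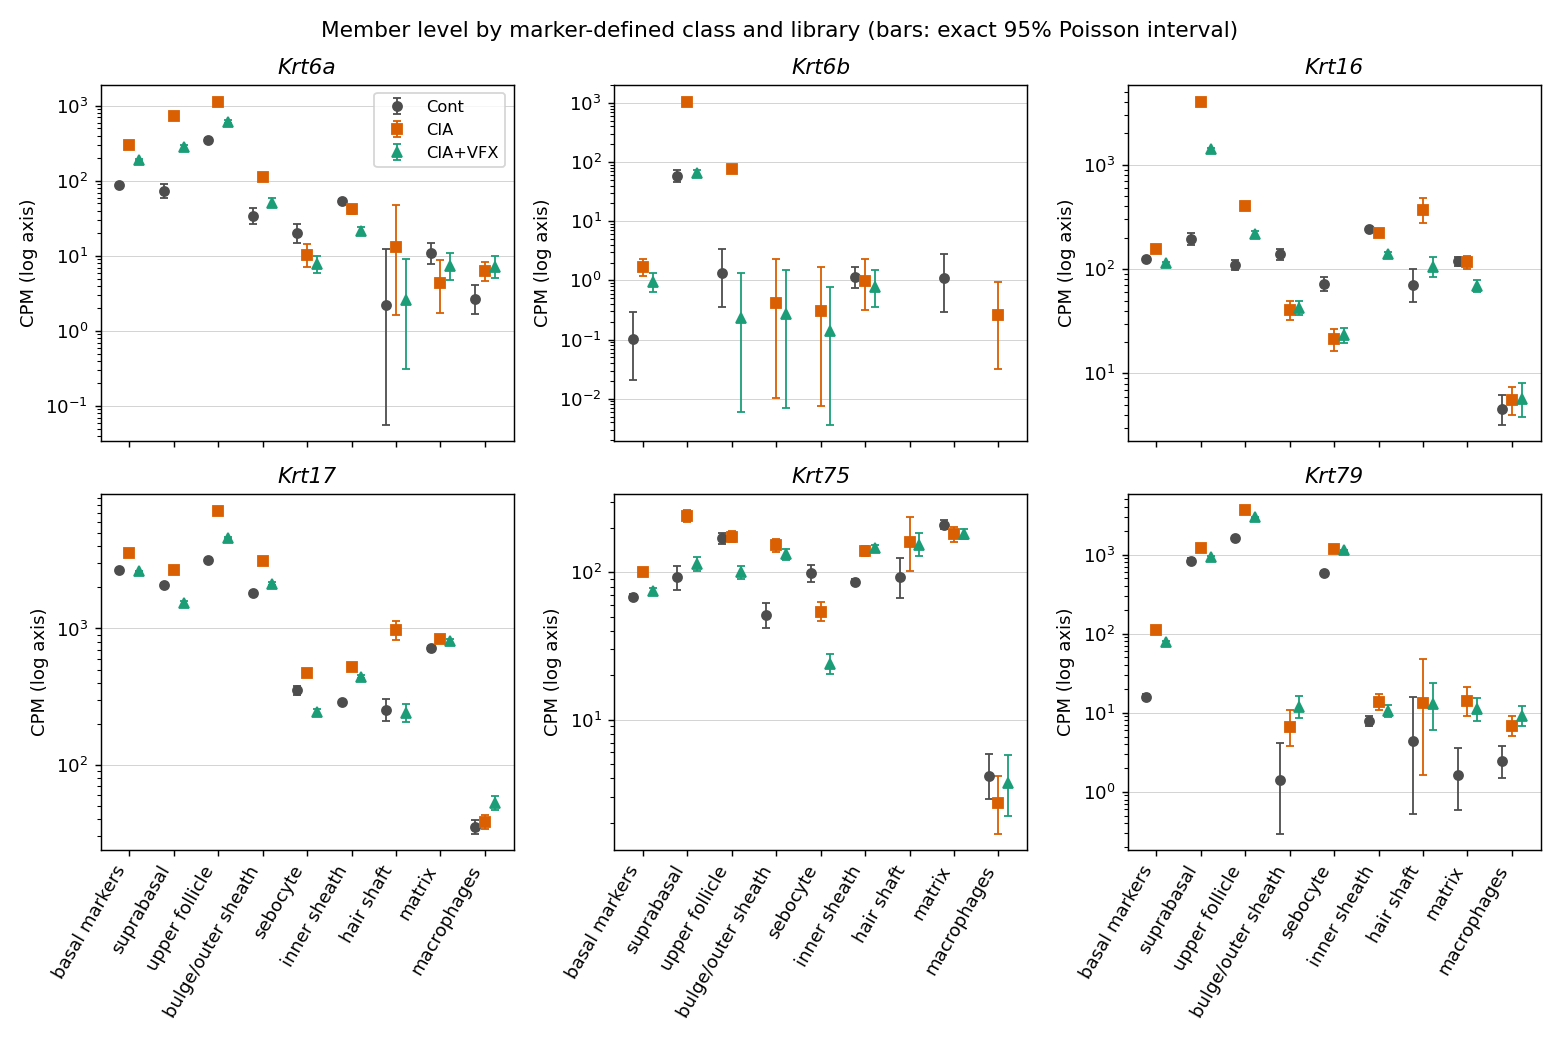
CPM on a log axis (vertical) of each member in 8 marker-defined keratinocyte classes and in macrophages (horizontal), with 1 point per library and exact 95% Poisson intervals; a count of 0 is not drawn, and hair shaft cells number under 75 per library. Krt79 peaks in upper follicle-like cells in each library, and Krt16 and Krt6b peak in suprabasal-like cells in CIA and CIA+VFX.

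Clusters resolved the sites further. Cluster 4, led by Defb6, Cst6 and Gata6, which are upper follicle genes, held 77.5%, 73.5% and 61.6% of Krt79 UMIs in Cont, CIA and CIA+VFX. Cluster 18, led by the sebaceous lipid genes Awat1 and Pnpla5, held 15.6%, 18% and 28.3%. These 2 clusters thus held most Krt79 in each library.

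Krt75 had its highest CPM in cluster 21, led by Cldn3, Fads3 and Rgs6, with 20, 63 and 58 cells. There it reached 3274, 5027 and 4055 CPM, and that cluster held 16.7%, 62.2% and 43.4% of all Krt75 UMIs. In Cont, cluster 9 held more of them, 20.9%. Krt17 in the same cluster was 5262, 17168 and 11202 CPM. Krt6a there had 2 UMIs in the 20 Cont cells, and stood at 955 CPM in CIA and 551 CPM in CIA+VFX. With 20 Cont cells, cluster 21 was compared only between CIA and CIA+VFX.

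Krt6b was mostly found in cluster 13, led by Wfdc12, Krt78 and Serpinb7, which held 67.0%, 88.7% and 85.5% of its UMIs. The leading cluster of Krt17 was cluster 6 in Cont (39.0% of its UMIs), led by Dio3, Mup18 and Bves, cluster 4 in CIA (29.8%) and cluster 1 in CIA+VFX (23.5%). The leading cluster of Krt16 also differed by library: cluster 9 held 37.1% of it in Cont, and cluster 13 held 56.7% in CIA and 36.4% in CIA+VFX. Cluster 9 was 88.1% inner root sheath-like cells, but its 3 leading genes were the haemoglobins Hbb-bs, Hba-a1 and Hba-a2. Krt6a was led by cluster 7 in Cont (28.6%), whose leading genes are Krt24 and Gdf10, and by cluster 4 in CIA (50.4%) and CIA+VFX (39.7%).

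**Figure D2:**
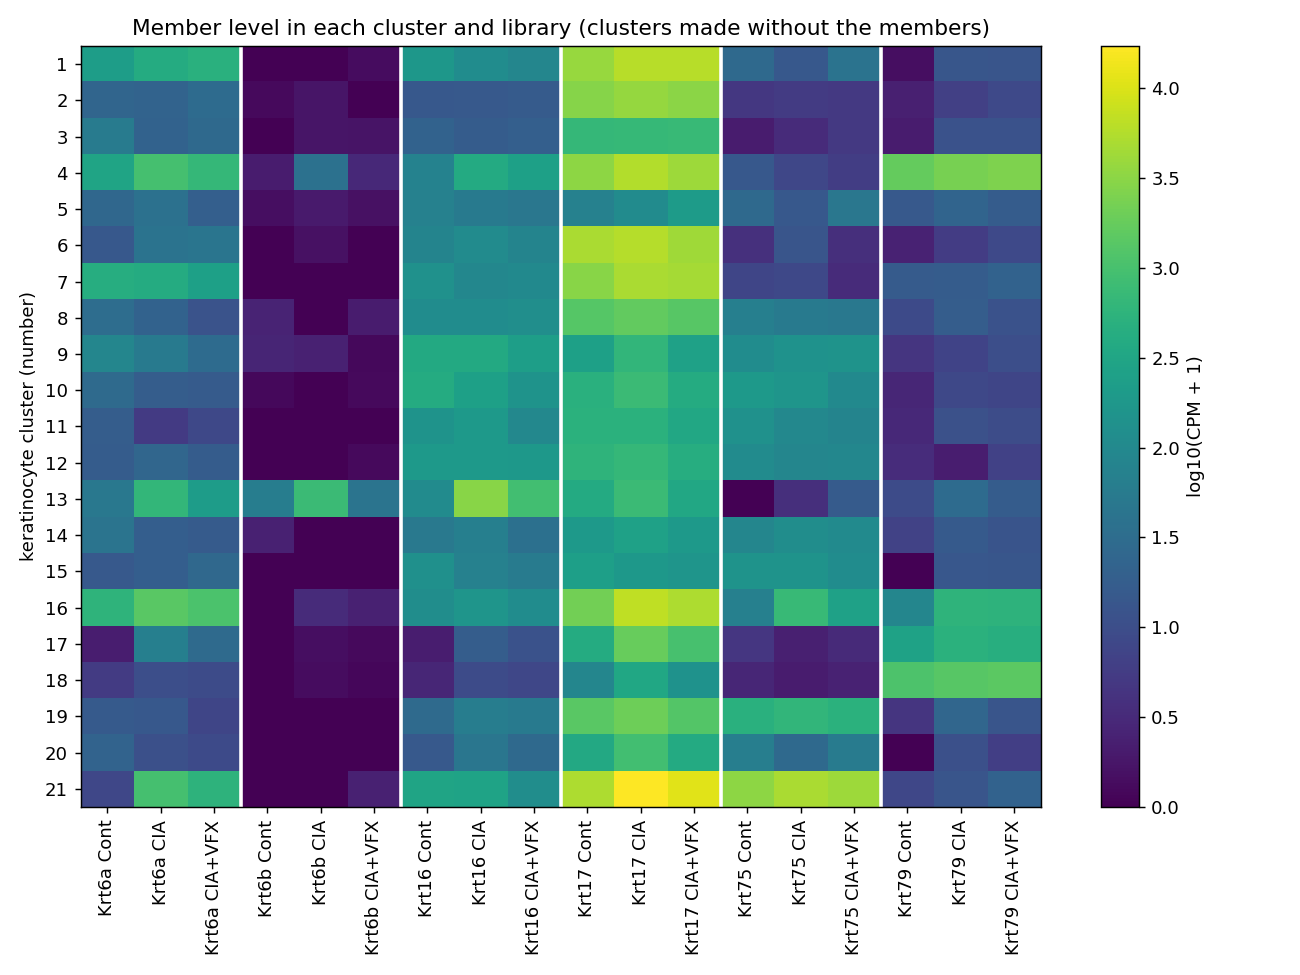
Colour gives log10(CPM + 1) of each member in each of 21 keratinocyte clusters (vertical) and 3 libraries (horizontal, grouped by gene). Krt79 is brightest in clusters 4 and 18, Krt75 in cluster 21, and Krt6b and Krt16 of the CIA library in cluster 13.

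The comparison of CIA with Cont asks how the alopecia model differs from vehicle-treated skin. In all keratinocytes 5 of 6 members were at least 1.5-fold higher in CIA and none was 1.5-fold lower, where 11.9% of 15649 measured genes were that much higher and 5.57% that much lower. Genes were counted as measured with at least 50 UMIs over both libraries. Krt6b differed most, with a log2 ratio of 5.03 (95% counting interval 4.76 to 5.32). Krt79 was higher by 2.02 on the log2 scale, Krt6a by 1.94, Krt16 by 1.08 and Krt17 by 0.89. Krt75 was within 1.5-fold, at 0.45 (0.40 to 0.51). The median log2 ratio was 1.51 over the members and 0.02 over all measured genes.

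The mix of keratinocytes also differed between the libraries. Cluster 4 held 223 Cont and 355 CIA cells (5.5% and 10.1% of keratinocytes), and cluster 13 held 94 and 155 (2.3% and 4.4%). When each cluster's share of UMIs was held at that of Cont, a step added after seeing the data, the Krt79 ratio went from 4.05-fold to 1.41-fold, and Krt6a from 3.82-fold to 1.75-fold. Krt6b went from 32.8-fold to 10.1-fold, Krt16 from 2.12-fold to 1.40-fold and Krt17 from 1.85-fold to 1.42-fold. Krt6a and Krt6b were then the 2 members at least 1.5-fold higher. The outcome depended on how the cells were divided. With each marker class's share of UMIs held instead, Krt79 was 2.35-fold, Krt6a 2.84-fold, Krt6b 14.5-fold and Krt16 1.56-fold higher. Those members all stayed past 1.5-fold, and Krt17 was 1.47-fold higher.

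**Figure D3:**
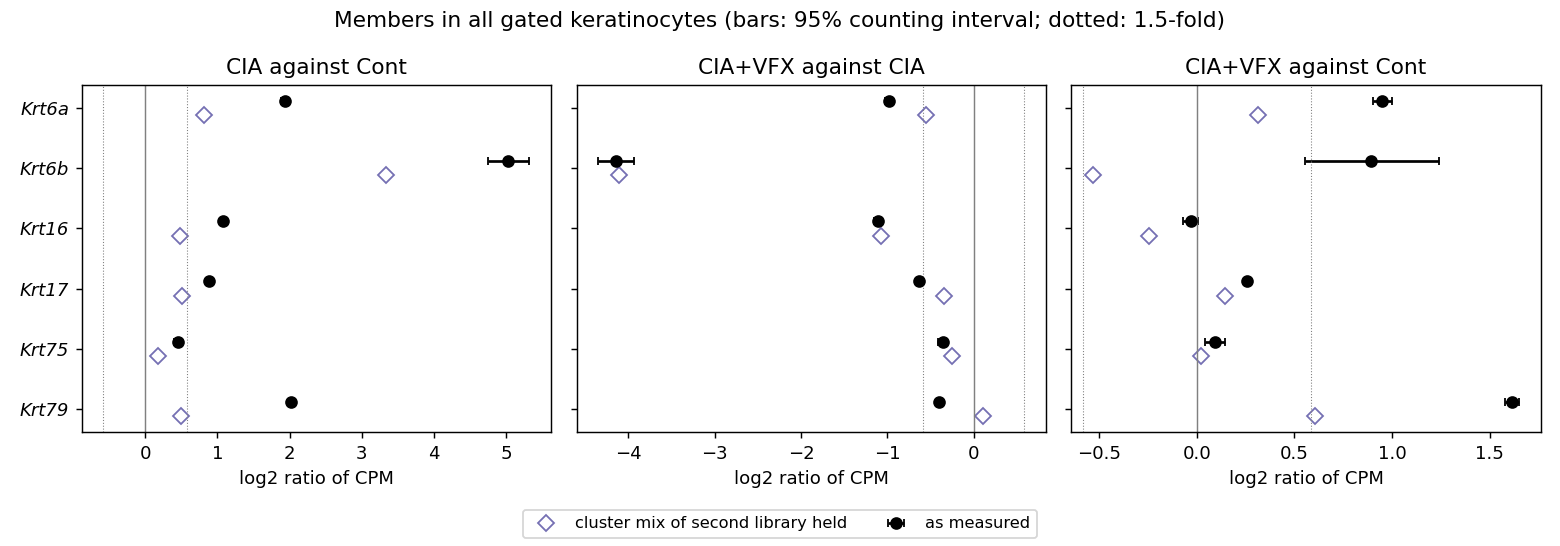
Log2 ratio of CPM (horizontal) of each member (vertical) in all gated keratinocytes for the 3 comparisons, as measured (black, 95% counting interval) and with the cluster mix of the second library held (open diamonds); dotted lines mark 1.5-fold. Krt79 in CIA against Cont moves from 2.02 to 0.49, and Krt6b in CIA+VFX against CIA stays near -4.

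In suprabasal-like cells the wound keratins Krt16, Krt6b and Krt6a differed most. Krt16 was 194 CPM in Cont and 3987 CPM in CIA, a log2 ratio of 4.36 (4.18 to 4.55). Krt6a was 73.2 and 734 CPM (3.33), and Krt6b 58.7 and 1026 CPM (4.13). Krt17 was 2083 and 2684 CPM, a log2 ratio of 0.37, so the 2 type I partners of Krt6 did not differ alike. Krt75 was higher by 1.39 and Krt79 by 0.54. In all, 4 members were at least 1.5-fold higher and 0 lower, where 11.0% of measured genes were higher and 26.0% lower. The median gene was lower by 0.18 on the log2 scale in this class.

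The suprabasal-like cells numbered 75 in Cont and 122 in CIA, and they were not alike in other ways. Their summed upper follicle markers were 5715 CPM in Cont and 1925 CPM in CIA, and 5 of 5 were detected in both. Krt1, a keratin of the spinous layer that helped define the class, was 1466 and 9774 CPM. Summed immune markers were 216 and 102 CPM, with 1 of 10 at 0 in each. Summed immediate-early genes, which respond to tissue dissociation, were 13901 and 6844 CPM. The part of these differences in the keratin ratios was not tested.

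Single cells carried much of the Krt6b count. All 73 Krt6b UMIs of the Cont suprabasal-like cells were in 1 cell. In CIA, 1 cell of 51669 UMIs held 1141 of 1915, 59.6%, and the same cell held the most Krt16 (1470 UMIs) and Krt6a (299 UMIs) of any CIA keratinocyte. Without the highest cell of each library, Krt6b in these cells had 0 UMIs in Cont and 774 in CIA. That cell was chosen by its Krt6b count, so these counts are a description and no ratio is drawn from them. Krt16 was then 150 and 3290 CPM, a log2 ratio of 4.46, so its difference did not rest on that cell. At least 10 Krt16 UMIs per 10000 were found in 5 of 75 Cont cells (6.67%), 61 of 122 CIA cells (50%) and 67 of 178 CIA+VFX cells (37.6%).

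**Figure D4:**
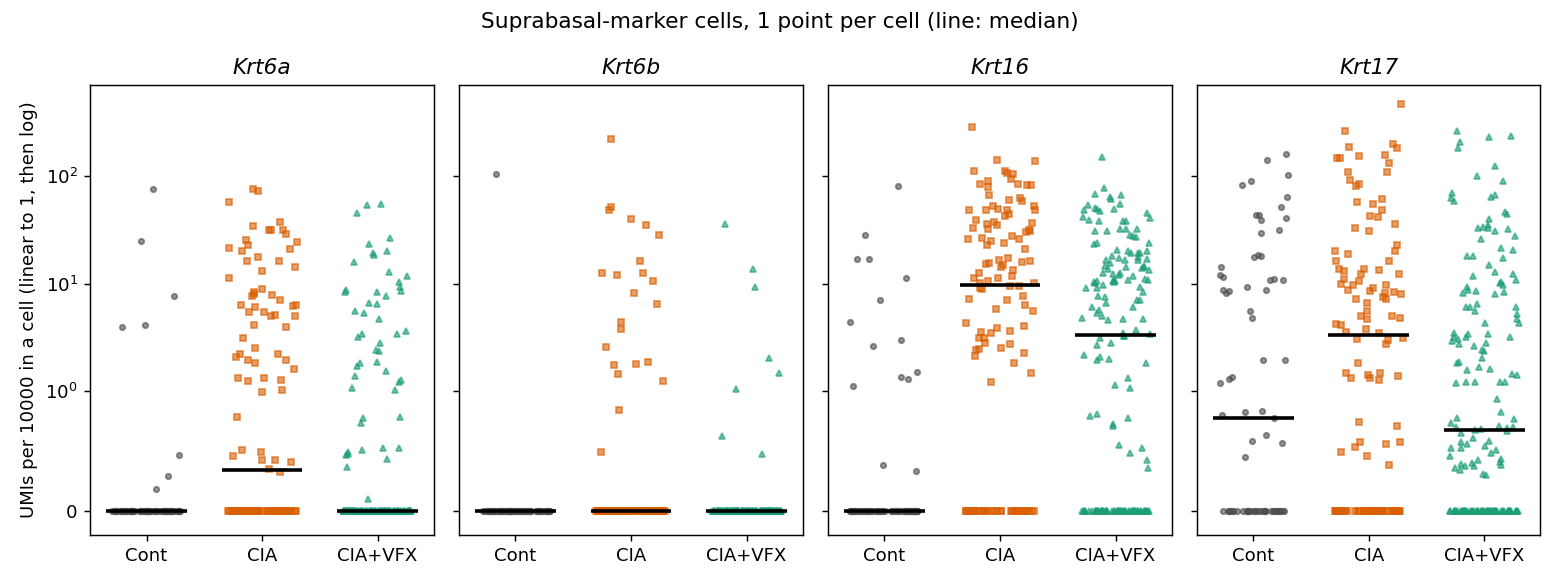
UMIs per 10000 (vertical; linear to 1, then log) of 4 wound keratins in each suprabasal-like cell, 1 point per cell, by library (horizontal), with the median as a line. The Krt16 median is 0 in Cont, 9.81 in CIA and 3.33 in CIA+VFX, and Krt6b is at 0 in most cells of each library.

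In cluster 13, made without the members or the class cut, Krt16, Krt6a and Krt6b were past 1.5-fold as in the class, and so was Krt17, which in the class was not. The cluster is not separate from the class: it held 58.7% of the suprabasal-like cells in Cont and 57.4% in CIA. Of its own cells 54.5% were basal-marker cells. Krt16 was 112 CPM in Cont and 3038 CPM in CIA (log2 4.77), Krt6a 48.7 and 639 CPM (3.71), and Krt6b 60.3 and 769 CPM (3.67). Krt17 was 394 and 759 CPM (0.95). Krt6b there rested largely on the single cells named above. In Cont 1 cell held all 73 UMIs, and in CIA 1 cell held 1141 of 1952. Of the genes measured in this cluster 13.1% were past 1.5-fold upward and 25.4% downward.

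Upper follicle-like cells had 5 members at least 1.5-fold higher and 0 lower, where 12% and 10.1% of measured genes were. Other markers of the class differed too: summed basal markers were 2566 and 5494 CPM, suprabasal markers 2703 and 4389 CPM and immediate-early genes 8497 and 5187 CPM in Cont and CIA. Their part in the keratin ratios was not tested. Krt6a was higher by 1.66 (1.56 to 1.76), Krt16 by 1.88, Krt17 by 1.20 and Krt79 by 1.14 on the log2 scale. Krt75 was 170 and 174 CPM, a log2 ratio of 0.03. Krt6b had 4 UMIs in Cont and 241 in CIA, of which 225 were in 1 cell. Without the highest cell Krt6b had 0 and 16 UMIs. Within cluster 4, Krt79 was 1694 CPM in Cont and 2339 CPM in CIA, a log2 ratio of 0.47 (0.42 to 0.51), while Krt6a (1.68) and Krt16 (2.42) were past 1.5-fold. In that cluster 18% of measured genes were higher and 16.0% lower.

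Basal-marker cells had 2 members at least 1.5-fold higher and 0 lower, where 11.1% and 5.63% of genes were. Krt6a was 87.5 and 303 CPM (1.79), and Krt79 15.7 and 112 CPM (2.84). Of these cells, 80 in Cont (4.1%) and 199 in CIA (10.2%) lay in cluster 4, the cluster that held most Krt79. Krt17 in this class was 2667 and 3576 CPM, within 1.5-fold. Cluster 6, the leading Krt17 cluster of Cont, contributed 19.6% of basal-marker cells in that library and 6.64% in CIA. The part of these shifts was not tested.

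Deeper follicle classes went other ways. Bulge and outer root sheath-like cells had 3 members higher and 1 lower, beside 11.0% and 4.62% of genes: Krt6a, Krt17 and Krt75 were higher and Krt16 was lower, at 139 and 40.1 CPM. The class lay in different clusters: cluster 7, which led Krt6a in Cont, held 5.16% of it in Cont and 15.5% in CIA, and cluster 20 held 0.79% and 8.45%. For Krt75, 1 cell held 191 of the 370 CIA UMIs, 51.6%, and without the highest cell of each library the log2 ratio was 0.97. Summed pericyte and smooth muscle markers were 100 and 238 CPM. The part of these in the ratios was not tested. Inner root sheath-like cells had 3 higher (Krt17, Krt75 and Krt79) and 0 lower, beside 5.61% and 5.56%. Krt79 there had 171 and 71 UMIs, close to the level of free RNA. With cells thinned to 2000 UMIs its log2 ratio was -0.11, from too few UMIs to be counted as measured. Sebocyte-like cells had 1 higher and 3 lower, beside 12.5% and 28.6%, with Krt79 the higher one. Cluster 18 made up 29.6% of the sebocyte-like cells in Cont and 60.5% in CIA. Matrix-like cells had 0 of 3 measured members past 1.5-fold, beside 6.47% higher and 5.11% lower.

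Cluster 16, led by Cst6, Cstb and Sema6a, was the 1 cluster of 11 compared where Krt75 was at least 1.5-fold higher in CIA. It held 76 Cont and 121 CIA cells of low depth, with medians of 1895 and 1952 UMIs. Krt75 there was 69.0 and 706 CPM, a log2 ratio of 3.36 (2.69 to 4.11) from 19 and 309 UMIs. Krt79 was 87.1 and 560 CPM and Krt17 2170 and 6839 CPM. Of the genes measured there 18.1% were past 1.5-fold upward and 8.53% downward. Over clusters with at least 50 cells in both libraries, Krt17 was at least 1.5-fold higher in 8 of 17 and lower in 0. Krt79 was higher in 6 of 8 and lower in 0. Krt6a was higher in 6 and lower in 5 of 15, and Krt16 higher in 2 and lower in 3 of 15. Krt6b was higher in 2 of 2, and Krt75 was higher in 1 and lower in 3 of 11, with a median log2 ratio of -0.33. The Krt6b clusters were cluster 13, where single cells held much of the count, and cluster 4, with 4 Cont and 236 CIA UMIs. The share of measured genes in a cluster that were higher ran from 3.6% to 19.4%, and the share that were lower from 5.25% to 25.4%.

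The comparison of CIA+VFX with CIA asks how venlafaxine-treated model skin differs from the model. In all keratinocytes 0 members were at least 1.5-fold higher and 4 of 6 were lower, where 3.06% of 15831 genes were higher and 4.4% lower. The 4 were the wound keratins. Krt6b had a log2 ratio of -4.14 (-4.35 to -3.94). The ratios of Krt16, Krt6a and Krt17 were -1.11, -0.99 and -0.63. Krt79 (-0.40) and Krt75 (-0.36) were within 1.5-fold. The median was -0.81 over the members and -0.01 over all genes. With the cluster mix of CIA held, Krt6b (0.06-fold) and Krt16 (0.48-fold) were still past 1.5-fold, whereas Krt6a (0.68-fold) and Krt17 (0.79-fold) were no longer so, and Krt79 was 1.08-fold. With the class mix of CIA held, Krt6b (0.07-fold), Krt16 (0.50-fold) and Krt6a (0.57-fold) were past 1.5-fold, and Krt17 (0.71-fold) was not.

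Suprabasal-like cells had 0 members higher and 5 lower, where 7.82% and 7.51% of genes were. Krt16 was 3987 CPM in CIA and 1407 in CIA+VFX, a log2 ratio of -1.50 (-1.56 to -1.45). Krt6a was 734 and 283 CPM (-1.38), Krt6b 1026 and 64.3 CPM (-4.00) and Krt17 2684 and 1534 CPM (-0.81). Krt75 was 242 and 114 CPM (-1.09), and Krt79 1218 and 919 CPM (-0.41). Without the highest cell of each library the Krt16 ratio was -1.33. For Krt6b the highest cell held 1141 of 1915 UMIs in CIA and 113 of 170 in CIA+VFX. Those cells were chosen by their Krt6b count, so no ratio without them is drawn. Immediate-early genes were 6844 and 6730 CPM and immune markers 102 and 76.4 CPM. Upper follicle markers were 1925 and 3310 CPM and basal markers 3387 and 1762 CPM, and the part of these differences in the keratin ratios was not tested.

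Upper follicle-like cells had 0 higher and 5 lower, where 4.22% and 5.36% of genes were. Krt6a, Krt16, Krt17 and Krt75 had log2 ratios of -0.85, -0.89, -0.67 and -0.80. Krt79 was 3608 and 2966 CPM (-0.28). Krt6b had 241 UMIs in CIA and 1 in CIA+VFX, a log2 ratio of -8.36 (-13.67 to -5.87). Of the 241, 225 were in the 1 CIA cell named above. For Krt75, another CIA cell held 223 of the 542 UMIs, 41.1%, and 1 CIA+VFX cell held 66 of 424.

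In the other classes fewer members were past 1.5-fold. Basal-marker cells had 0 higher and 2 lower, beside 2.11% and 4.49% of genes, with Krt6a at 303 and 189 CPM. The other was Krt6b, from 37 and 32 UMIs: 1 CIA cell held 29 of the 37 and 1 CIA+VFX cell held 22 of the 32. Bulge and outer root sheath-like cells had 1 higher and 1 lower, beside 4.34% and 5.07%; the higher one was Krt79, from 16 and 44 UMIs. Sebocyte-like cells had 0 higher and 2 lower, beside 7.85% and 2.83%, and Krt79 there was 1170 and 1127 CPM. Inner root sheath-like cells had 0 higher and 2 lower, beside 5.03% and 3.36%. Matrix-like cells had 0 higher and 1 lower, beside 5.86% and 3.23%.

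In cluster 13 the 4 wound keratins were at least 1.5-fold lower in CIA+VFX, where 6.48% of 8502 measured genes were lower and 8.08% higher. Krt16 was 3038 and 896 CPM (-1.76), Krt6a 639 and 216 CPM (-1.56), Krt6b 769 and 41.8 CPM (-4.20) and Krt17 759 and 350 CPM (-1.12). Of the Krt6b UMIs there, 1 cell held 1141 of 1952 in CIA and 1 cell held 113 of 183 in CIA+VFX. In cluster 21, Krt75 was 5027 and 4055 CPM, a log2 ratio of -0.31 (-0.39 to -0.23). Krt17 and Krt6a there had ratios of -0.62 and -0.79. Across clusters Krt16 was at least 1.5-fold lower in 9 of 19 and higher in 0, and Krt6a lower in 7 of 16 and higher in 0. Krt17 was lower in 8 and higher in 1 of 20, and Krt6b lower in 2 of 2. Krt75 was lower in 2 and higher in 4 of 14, and Krt79 lower in 2 and higher in 1 of 11. In the 17 clusters with at least 50 cells in each of the 3 libraries, between 3.25% and 9.89% of measured genes were lower and between 2.93% and 13.5% higher.

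CIA+VFX was also set beside Cont, which shares a library with each comparison above. In all keratinocytes 3 members were at least 1.5-fold higher and 0 lower, where 8.89% of 16257 genes were higher and 4.11% lower. Krt79 was higher by 1.62 (1.58 to 1.65), Krt6a by 0.95 and Krt6b by 0.89. Krt16 (-0.03), Krt17 (0.25) and Krt75 (0.09) were within 1.5-fold. The Krt16 value for the whole gate hid opposite differences: it was higher by 2.86 in suprabasal-like cells and by 1.0 in upper follicle-like cells, and had ratios of -1.71 in bulge and outer root sheath-like cells and -0.81 in inner root sheath-like cells. With the cluster mix of Cont held, Krt79 was 1.52-fold, Krt6a 1.24-fold and Krt6b 0.69-fold. With the class mix of Cont held, Krt79 was 1.92-fold, Krt6a 1.66-fold and Krt6b 1.16-fold.

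By class, suprabasal-like cells had 2 members higher (Krt16 and Krt6a) and 0 lower, beside 7.0% and 21.6% of genes. Upper follicle-like cells had 3 higher and 1 lower, beside 7.03% and 7.35%, the lower one being Krt75 at 170 and 99.8 CPM. Basal-marker cells had 2 higher and 0 lower, beside 7.7% and 4.87%. Bulge and outer root sheath-like cells had 1 and 1, beside 8.95% and 3.45%. Sebocyte-like cells had 1 and 3, beside 9.78% and 20.9%, and inner root sheath-like cells 2 and 2, beside 5.29% and 3.0%. Matrix-like cells had 0 higher and 1 lower, beside 7.31% and 3.49%.

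Shares of cells were compared after thinning each cell to 2000 UMIs, which left out 265, 311 and 670 keratinocytes in Cont, CIA and CIA+VFX. Krt6a was found in 9.14%, 15.9% and 9.42% of keratinocytes, and without thinning in 23.5%, 28.0% and 19.6%. Krt79 was found in 5.51%, 12.6% and 11.3%, and without thinning in 10.3%, 20% and 19.6%. Macrophages, with median depths of 5854, 5436 and 5743 UMIs, had Krt6a in 0.69%, 1.22% and 1.76% and Krt79 in 0.60%, 1.38% and 1.88% of thinned cells. Both members were thus above this background in each library. Krt16 was found in 13.8%, 13.5% and 11.8% of keratinocytes, a narrow range beside its CPM, which was over 2-fold higher in CIA. In suprabasal-like cells its share was 11.6% (exact interval 5.14% to 21.6%), 64.9% (55.2% to 73.7%) and 49.7% (41.8% to 57.6%), and without thinning 20%, 73.0% and 62.9%. In macrophages it was 0.69%, 1.14% and 1.38%.

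Members were found together in part. Among thinned cells with Krt6a, Krt17 was present in 75.2%, 83.1% and 83.7%, against 57.4%, 64.4% and 57.9% of cells without Krt6a. Krt79 was present in 9.0%, 24.4% and 23.1% of cells with Krt6a, against 5.2%, 10.4% and 10.1% of the others. Of the 19 CIA cells with Krt6b, 17 had Krt16 and 14 had Krt6a, against 13.1% and 15.5% of cells without Krt6b. Krt17 went the other way, in 8 of the 19 (42.1%) against 67.5% of the others. Krt75 and Krt79 were seldom found in the same cell: Krt79 was in 1.3%, 5.6% and 2.9% of cells with Krt75. Cells of 1 library are not replicates, and these shares are a description.

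Genes known to accompany the wound keratins were read from lists chosen with earlier results of these data known. In all keratinocytes, of 20 measured wound and stress partners, 13 were at least 1.5-fold higher in CIA than in Cont and 0 lower. Of all measured genes 11.9% were higher and 5.57% lower. The median log2 ratio of the list was 1.80. The cysteine protease inhibitor Stfa3 was 1.84 and 223 CPM (6.92), the cornified envelope precursor Sprr2d was higher by 6.74, Stfa1 by 5.36 and Sprr1b by 4.66. Against CIA, CIA+VFX had 9 of 21 lower and 0 higher, beside 4.4% and 3.06% of genes, with a median of -0.51. Stfa2 (-2.68), S100a9 (-1.81), Stfa1 (-1.42) and S100a8 (-1.16) differed most, S100a8 and S100a9 being the subunits of calprotectin. Against Cont, CIA+VFX had 10 of 20 higher, beside 8.89% of genes, with a median of 0.70. The classes differed in CIA against Cont. In basal-marker cells 8 of 18 partners were higher and 2 lower (median 0.15), beside 11.1% and 5.63% of genes. Suprabasal-like cells had 12 of 15 higher and 1 lower (3.41), beside 11.0% and 26.0%. Matrix-like cells had 1 of 8 higher and 4 lower (-0.48), beside 6.47% and 5.11%.

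Candidate regulators are given for all keratinocytes unless a class is named. There 11.9% of measured genes were higher and 5.57% lower in CIA than in Cont, and 4.4% were lower in CIA+VFX than in CIA. Of 8 genes for the EGF receptor and its ligands, 1 was past 1.5-fold in CIA against Cont: the ligand Tgfa was 31.6 CPM in Cont, 51.1 in CIA and 32.7 in CIA+VFX. By class that list had 3 of 7 higher in basal-marker cells (Ereg, Tgfa and Areg), 3 of 6 higher in bulge and outer root sheath-like cells and 4 of 5 lower in sebocyte-like cells. Of measured genes 11.1% were higher in basal-marker cells, 11.0% higher in bulge and outer root sheath-like cells and 28.6% lower in sebocyte-like cells. Of 9 measured genes of the interleukin-17 and STAT3 response, 4 were higher in CIA, among them Ccl20 (1.95), a chemokine, and Socs3 (1.10), a feedback inhibitor, and 4 were lower in CIA+VFX than in CIA. In CIA against Cont, this list had 3 of 9 higher and 1 lower (median 0.36) in basal-marker cells, beside 11.1% and 5.63% of genes. It had 1 of 6 higher and 2 lower (median -0.55) in suprabasal-like cells, beside 11.0% and 26.0%. Of 11 NRF2 pathway genes 3 were higher and 1 lower in CIA. None of 8 AP-1 subunits and none of 6 hedgehog genes was past 1.5-fold in any of the 3 comparisons in all keratinocytes, whereas in suprabasal-like cells 7 of 8 AP-1 subunits were lower in CIA than in Cont, beside 26.0% of measured genes. The immediate-early genes, which include AP-1 subunits, summed to 13901 and 6844 CPM in the same cells, and their part was not tested.

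Of 13 other keratins, 6 were higher and 2 lower in CIA than in Cont in all keratinocytes, beside 11.9% and 5.57% of measured genes. Krt1 was 31.6, 492 and 307 CPM in Cont, CIA and CIA+VFX, and Krt14 was 754, 2734 and 1818 CPM. Krt77, a suprabasal keratin, went the other way, at 74.9, 33.8 and 120 CPM. By class the other keratins divided differently in CIA against Cont. In suprabasal-like cells 3 of 9 measured were higher and 5 lower (median -0.93), beside 11.0% and 26.0% of measured genes. In upper follicle-like cells 2 of 8 were higher and 5 lower (median -0.84), beside 12% and 10.1%.

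Likeness was measured as Pearson's r of log2(CPM + 1) over 59 profiles, each a cluster in 1 library with at least 50 cells, among 13499 genes. The profiles share libraries and depth, and the values are a description. Krt6b was most like Serpinb3b (0.89), Sprr2d (0.89) and Sprr2a3 (0.88), and the genes most like Krt16 included Lypd3 (0.85) and Dusp7 (0.73). Krt6a was most like Crabp2 (0.85), Gpx2 (0.84) and Gsn (0.80), and Krt17 most like Sdc1 (0.82), Ier3 (0.82) and Rras (0.80). Krt79 was most like Sdr16c6 (0.83), Aadac (0.82) and Lcn2 (0.82), and Krt75 most like Nae1 (0.80), Slc30a1 (0.80) and Chd4 (0.77). Among the members, Krt6a and Krt17 had the highest r, 0.63, and the 2 type I wound keratins Krt16 and Krt17 had 0.13.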

How the data were processed

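The deposited values are UMI counts per gene and cell barcode, whole numbers that Cell Ranger 8.0.1 wrote, per the file headers, against GRCm39 per the submitters' processing notes; libraries were Chromium GEM-X 3′ v4 per the labels' protocols. Total UMIs were 143164803 (Cont), 130557879 (CIA) and 155210692 (CIA+VFX). Barcodes under 500 genes or above 15% mitochondrial UMIs were dropped. Doublet calls compared cells with simulated doublets at 0.4% per 1000 barcodes, and removed 245, 254 and 498 gated keratinocytes. Keratinocytes needed an epithelial score of at least 0.15 and a second compartment at no more than 0.5 of it. Clusters came from Leiden at resolution 1.5 on 2000 genes, 40 components and 20 neighbours (leidenalg 0.10.2, scikit-learn 1.9.0), without the members. UMIs were summed per class and library. Ratios have exact conditional binomial intervals, levels Poisson and shares Clopper-Pearson intervals, all at 95%. A class was compared with at least 50 cells per library, and a gene was called at 1.5-fold. For 868, 694 and 1349 cells the best class led the next by under 0.05. The ratio step was tested on simulated data. Sequences are from GENCODE M21 on GRCm38.

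The genes named are the 6 members, at most 4 per list and comparison by size of log2 ratio, and the 3 genes most like each member, of which 1 is not reported here; cluster and marker genes named beside them, further list genes given for their levels, and the 8 immediate-early genes were chosen after values were seen. The members and lists were chosen with earlier results of these data known. Alternatives covered the cell filter, doublets, scaling, weight of cells, depth, free RNA, the gate, the class rule and the UMI minimum. Holding the class or cluster mix, ratios within clusters and leaving out the highest cell were chosen after seeing the data.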

Additional observations from a re-analysis of the deposited data

Results flagged for a closer look

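Some members went in opposite directions in different classes under the same comparison, each past 1.5-fold. These differences between classes were not tested, since each group is 1 library. In CIA against Cont, Krt16 had log2 ratios of 4.36 in suprabasal-like and 1.88 in upper follicle-like cells, but -1.79 in bulge and outer root sheath-like and -1.77 in sebocyte-like cells. With classes by majority of cluster the sebocyte-like value was 2.20, and thinning to 2000 UMIs gave -1.50 in the bulge and outer root sheath-like class with too few UMIs to be counted as measured. Krt75 had 1.39 in suprabasal-like cells, 1.57 in the bulge and outer root sheath-like class and 0.70 in the inner root sheath-like class, but -0.87 in sebocyte-like cells. The last was 0.21 when thinned.

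In CIA+VFX against Cont, Krt16 had 2.86 in suprabasal-like and 1.0 in upper follicle-like cells, but -1.71 in bulge and outer root sheath-like, -1.65 in sebocyte-like, -0.80 in matrix-like cells and -0.81 in the inner root sheath-like class. Krt6a had 1.11 in basal-marker, 1.95 in suprabasal-like and 0.80 in upper follicle-like cells, but -1.38 in sebocyte-like cells and -1.35 in those of the inner root sheath-like class. Krt75 had 1.36 in the bulge and outer root sheath-like class and 0.77 in the inner root sheath-like class, but -0.77 in upper follicle-like and -2.05 in sebocyte-like cells. The sebocyte-like values move with the make-up of that class: cluster 18 held 29.6%, 60.5% and 56.4% of it in Cont, CIA and CIA+VFX, and its part in these ratios was not tested. With classes by majority of cluster the sebocyte-like ratios against Cont were 0.87 for Krt6a and 1.93 for Krt16.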

How the results depend on the processing

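No paired analysis was possible because each group had 1 library, and for the same reason no library could be left out. Of 72 ratios past 1.5-fold, 40 kept their direction and stayed past it under each change that could be applied to them. The changes were of filter, doublets, scaling, weight, depth, free RNA, gate and class rule. The class rule could be applied to 39 of the 72. No cluster had suprabasal-like, upper follicle-like or bulge and outer root sheath-like cells as its largest class. Ratios of those classes were thus not put to that rule. The UMI minimum was changed for the counts of members only. All 72 kept their direction and stayed past 1.5-fold with the stricter cell filter and with median-of-ratios scaling.

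Of 12 ratios past 1.5-fold in all keratinocytes, 9 stayed so with the class mix held and 5 with the cluster mix held. In all keratinocytes, holding the cluster mix left 2 members higher in CIA than Cont (5 as measured), 2 lower in CIA+VFX than CIA (4) and 1 higher in CIA+VFX than Cont (3). In that last comparison the mean over cells gave 1 higher and 1 lower, and thinning 1 higher. Summed over classes, classes by majority of cluster gave 9 higher (18) and 1 lower (4) in CIA against Cont, 0 higher (1) and 7 lower (18) in CIA+VFX against CIA, and 5 higher (11) and 3 lower (8) in CIA+VFX against Cont; fewer classes could be compared there. Thinning gave 1 lower in CIA against Cont, 0 higher in CIA+VFX against CIA and 5 lower in CIA+VFX against Cont. The 1 higher in CIA+VFX against CIA became 0 without doublet removal, with free RNA subtracted, with the stricter gate and at 200 UMIs, and 2 with the mean over cells and at 10 UMIs.

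Log2 ratios that reversed were few. Krt6b in all keratinocytes, CIA+VFX against Cont, was -1.10 (mean over cells), -0.64 (thinned) and -0.53 (cluster mix). Krt6b in basal-marker cells, CIA+VFX against CIA, was 0.24 with free RNA subtracted. When thinned, Krt79 was -1.95 in bulge and outer root sheath-like cells (CIA+VFX against CIA) and -0.11 in inner root sheath-like cells (CIA against Cont). In sebocyte-like cells, CIA against Cont, Krt6a was 0.083 and Krt75 0.21 when thinned, and Krt6a 1.06 and Krt16 2.20 with classes by cluster. With classes by cluster, sebocyte-like Krt75 was 0.48 in CIA+VFX against CIA, and Krt6a 0.87 and Krt16 1.93 in CIA+VFX against Cont. The causes were not tested.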
